A study of Mus musculus with 6 samples.

Results

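The genes described here are a named list of 57 genes of mitosis and cytokinesis: genes for entry into mitosis, the spindle checkpoint, the kinetochore, the spindle, the separation of sister chromatids, cytokinesis and chromosome structure. A gene was measured by the probe sets that the array annotation assigns to it alone, and was represented by the one with the highest mean signal over the 6 arrays. By this rule 56 of the 57 were measured, out of 18193 genes in all. The remaining one, Ccnb1, which encodes cyclin B1, has no such probe set in the annotation used here and was not analysed here.

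The study profiled 3 samples of Ebf2-positive and 3 samples of Ebf2-negative bone marrow cells on Affymetrix MOE430_2 arrays. Ebf2 is a transcription factor of immature mesenchymal cells. Both groups came from untreated wild-type mice of the C57BL/6 background, and both were sorted within the gate CD45-TER119-CD31-. This gate is meant to leave out cells that carry these surface markers of leukocytes, erythroid cells and endothelial cells. Cells of the same lineages that lack the markers are not left out by it. Each RNA sample came from 1000 or 2000 cells and was amplified before hybridization. How Ebf2 was detected, which sample had which cell number, and whether replicates came from separate animals are not stated in the labels. The p-values therefore measure only how these samples vary, and that variation may be technical.

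Ebf2 followed the labels. Its log2 signal was 8.13, 8.80 and 8.04 on the Ebf2-positive arrays, against 3.10, 4.02 and 3.84 on the Ebf2-negative arrays, with no overlap (difference 4.67, SE 0.33, limma adjusted p = 0.000476). Across the non-control probe sets, Pearson correlations were 0.919 to 0.924 among Ebf2-positive arrays, 0.968 to 0.977 among Ebf2-negative arrays and 0.825 to 0.873 between the groups. Median intensity was 12.9 to 14.0 on all 6 arrays, and the number of arrays limits the precision. Every difference is given in log2 units as Ebf2-positive minus Ebf2-negative, and a gene is called lower or higher where its adjusted p is under 0.05 over all 18193 genes. Stromal genes were called higher in 10 of 11 cases in Ebf2-positive cells. Their list mean was 12.0 to 12.3 on the Ebf2-positive arrays, against 7.05 to 7.98 on the Ebf2-negative arrays. The exception was Cxcl12, with 11.92, 12.56 and 11.45 on the Ebf2-positive arrays, against 10.99, 12.48 and 11.13 on the Ebf2-negative arrays. It was bright in both groups, and its difference of 0.44 did not pass (SE 0.48, adjusted p = 0.557).

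Entry into mitosis is driven by cyclin-dependent kinase activity, which condenses chromosomes and builds the spindle. Kinetochores, assembled on centromeres, bind spindle microtubules, and a checkpoint holds the cell until every chromosome is attached. The anaphase-promoting complex then releases separase, which cuts cohesin, and cytokinesis divides the cell. Most of these genes are transcribed in a burst late in the cell cycle, through promoter elements bound by the MuvB complex with B-MYB or, in resting cells, as the DREAM complex. In adult marrow, dividing cells are mainly haematopoietic progenitors and erythroid precursors, whereas most mesenchymal stromal cells divide rarely.

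Promoter sequence was set beside these genes because many of them are known targets of that shared control. The element that the MuvB complex binds, the cell cycle genes homology region (CHR), reads TTTGAA, and a known variant of it reads TTCGAA. The CCAAT box, bound by the factor NF-Y, often lies upstream of it. RefSeq promoters of build GRCm38.p6, each with 250 bases before and 50 after the annotated start of transcription, were found for 48 of the 57 genes. Shown here are windows of 110 bases, from 60 before the start to 50 after it, 5′ to 3′ on the strand of the gene. For each of the 9 role groups, the window is that of the gene with the largest difference among those with TTTGAA within 50 bases of the start. Trip13 is shown for its difference, which exceeded that of every other listed gene, and Kif15 and Kif22 as genes with a match that did not pass the test. Capitals mark these letters on either strand, so a match on the opposite strand reads TTCAAA for the CHR and ATTGG for the CCAAT box. In the Cdca8 window the CHR and a CCAAT box share 1 base.
Cdk1 (chr10:69352863-69352972, minus strand): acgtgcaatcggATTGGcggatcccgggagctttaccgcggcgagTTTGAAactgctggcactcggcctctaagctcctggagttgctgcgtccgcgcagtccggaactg
Plk1 (chr7:122159375-122159484, plus strand): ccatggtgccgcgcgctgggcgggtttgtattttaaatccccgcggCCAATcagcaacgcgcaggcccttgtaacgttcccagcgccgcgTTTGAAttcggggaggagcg
Bub1b (chr2:118598151-118598260, plus strand): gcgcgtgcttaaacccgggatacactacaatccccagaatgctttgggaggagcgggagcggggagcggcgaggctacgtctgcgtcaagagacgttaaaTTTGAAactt
Cdca8 (chr4:124936868-124936977, minus strand): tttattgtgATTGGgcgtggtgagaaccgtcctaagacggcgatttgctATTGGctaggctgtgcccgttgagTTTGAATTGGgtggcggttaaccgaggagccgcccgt
Cenpa (chr5:30666826-30666935, plus strand): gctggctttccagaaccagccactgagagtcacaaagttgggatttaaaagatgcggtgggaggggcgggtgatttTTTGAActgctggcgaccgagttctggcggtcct
Kif11 (chr19:37376322-37376431, plus strand): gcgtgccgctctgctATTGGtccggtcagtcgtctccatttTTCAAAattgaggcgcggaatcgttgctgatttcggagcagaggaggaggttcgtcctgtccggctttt
Cdca5 (chr19:6085037-6085146, plus strand): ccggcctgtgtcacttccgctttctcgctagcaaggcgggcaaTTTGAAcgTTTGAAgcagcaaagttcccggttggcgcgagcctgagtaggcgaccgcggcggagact
Ect2 (chr3:27153805-27153914, minus strand): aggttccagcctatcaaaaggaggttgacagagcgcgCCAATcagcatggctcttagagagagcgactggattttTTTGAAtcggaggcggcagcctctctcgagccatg
Ncapg (chr5:45669865-45669974, plus strand): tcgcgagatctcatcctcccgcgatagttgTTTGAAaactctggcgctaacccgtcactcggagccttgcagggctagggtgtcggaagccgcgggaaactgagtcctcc
Trip13 (chr13:73937718-73937827, minus strand): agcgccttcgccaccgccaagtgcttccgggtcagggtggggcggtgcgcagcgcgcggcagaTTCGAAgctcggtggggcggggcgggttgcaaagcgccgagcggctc
Kif15 (chr9:122951021-122951130, plus strand): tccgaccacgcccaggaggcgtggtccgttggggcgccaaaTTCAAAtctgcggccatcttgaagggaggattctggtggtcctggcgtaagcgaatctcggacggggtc
Kif22 (chr7:127042371-127042480, minus strand): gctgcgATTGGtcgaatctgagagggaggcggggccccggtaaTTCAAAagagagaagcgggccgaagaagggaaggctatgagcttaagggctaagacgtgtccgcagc

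In the Cdk1 window TTTGAA began 15 bases before the start and the CCAAT box 48 bases before it. Kif11 and Kif22 had similar spacing, with the CHR on the opposite strand 19 and 17 bases before the start and the CCAAT box 45 and 54 bases before it. Cdca5 held TTTGAA at both 17 and 9 bases before the start. The Trip13 window held the variant, 3 bases after the start, and no TTTGAA. Counted over whole promoters, TTTGAA was found on either strand in promoters of 31 of 48 mitosis genes (64.6%), against 20.2% of 27025 genes in the whole promoter table. Within 50 bases of the start it was found for 28 of 48 (58.3%), against 5.72% of all genes. The variant was found for 6 of 48 (12.5%), against 1.80%, and CCAAT for 34 of 48 (70.8%), against 41.1%. These are descriptions of letters in a window, not binding sites.

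**Figure D1:**
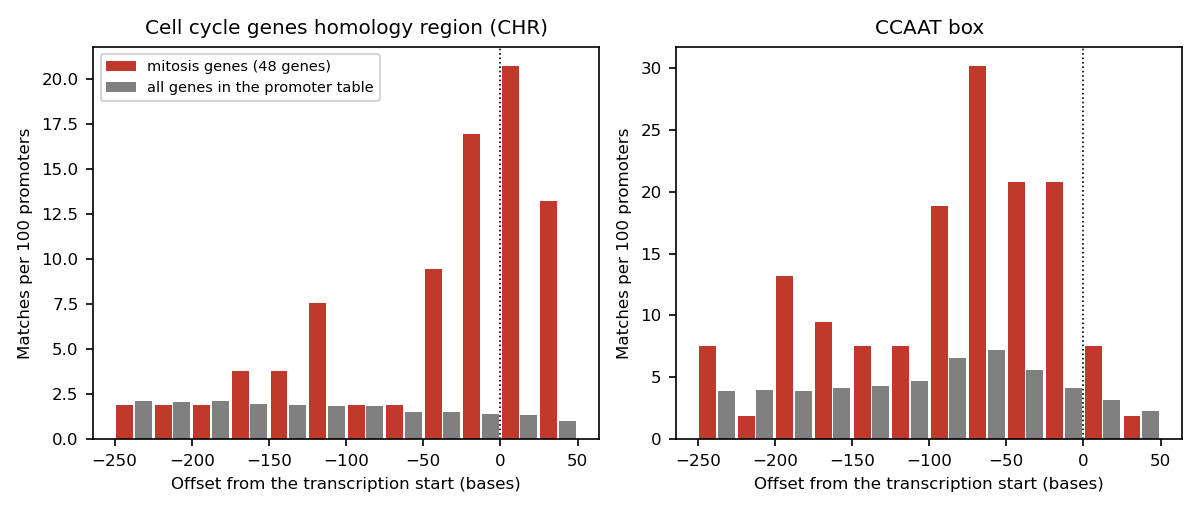
Matches per 100 promoters (vertical axis) by distance of the match from the annotated start of transcription, in bins of 25 bases (horizontal axis, bases, negative before the start), for TTTGAA on the left and CCAAT on the right; red bars are the mitosis genes and grey bars all genes in the promoter table. TTTGAA of the mitosis genes reached 20.8 matches per 100 promoters in the first 25 bases after the start, where all genes had 1.31, and CCAAT reached 30.2 between 75 and 50 bases before it, where all genes had 7.20.

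The genes called lower included some with and some without TTTGAA. Of the 43 called lower that had a promoter in the table, 29 held TTTGAA, with a median difference of -3.29, and those without it had a median of -3.69. Those without it included Trip13, Bub1 and Sgo1, which held the variant TTCGAA. Either form was found for 35 of 48 mitosis genes (72.9%), against 21.7% of all genes in the promoter table. Of the 4 uncalled genes with a promoter, 2 held TTTGAA. Among other mitosis genes, listed further on, 38 of 93 held TTTGAA (40.9%), among DNA replication genes 6 of 31 (19.4%), and among G1 genes 2 of 17 (11.8%).

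Mitotic transcripts were lower in Ebf2-positive cells across all 9 role groups. Of the 56 measured genes, 51 were called lower, 0 higher, and 5 did not pass. Over all genes tested, 24.4% were called, 13.6% lower and 10.8% higher. The median difference was -3.57 for the 56 genes and 0.07 for all genes, and 52 of the 56 had a difference of -2 or lower, against 6.52% of all genes. With the mean of all probe sets of a gene in place of the brightest, the median of the 56 was -2.90. The groups of arrays did not overlap for 53 genes that were lower in Ebf2-positive cells and for 1 that was higher, where 21.2% and 21.8% of all genes had that property. In such bulk samples, fewer dividing cells and less of each RNA per cell cannot be told apart.

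**Figure D2:**
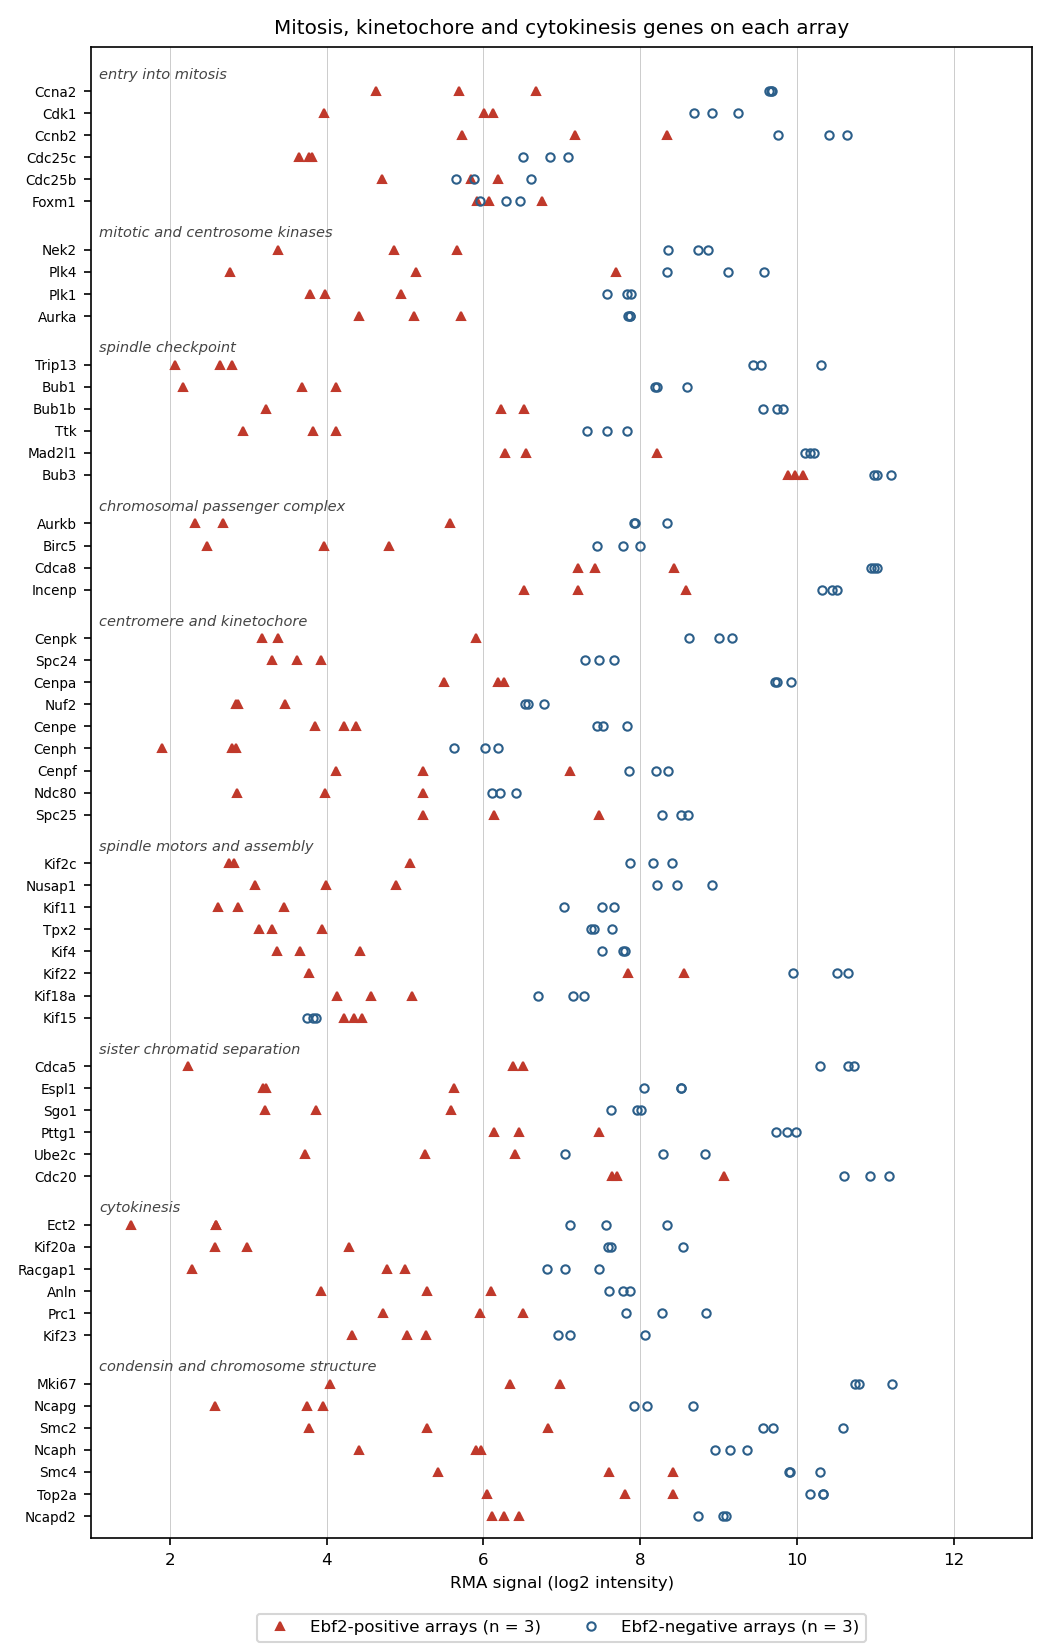
Log2 signal (horizontal axis, log2 intensity) of each of the 56 mitosis genes on each array, grouped by role (vertical axis); red triangles are the 3 Ebf2-positive arrays and open blue circles the 3 Ebf2-negative arrays. The triangles lie left of all circles for 53 genes, overlap them for Cdc25b and Foxm1, and lie right of them for Kif15.

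Among the genes of entry into mitosis, 4 of 6 were called lower. Ccna2, which encodes cyclin A2, a partner of the cyclin-dependent kinases in S phase and early mitosis, had log2 signals of 5.69, 4.63 and 6.67 on the Ebf2-positive arrays, against 9.64, 9.68 and 9.67 on the Ebf2-negative arrays. Cdk1, the kinase that drives mitosis, had 6.01, 3.97 and 6.12 on the Ebf2-positive arrays, against 8.69, 9.25 and 8.92 on the Ebf2-negative arrays. For both genes the Ebf2-negative arrays were close together, the Ebf2-positive arrays were spread and all lower, and Ebf2-positive replicate 2 was the lowest. Ccna2 differed by -4.00 (SE 0.49, adjusted p = 0.00258) and Cdk1 by -3.59 (SE 0.59, adjusted p = 0.00664). Ccnb2, a B-type cyclin, and Cdc25c, a phosphatase that activates Cdk1, fell by 3.19 and 3.06 on the log2 scale (adjusted p = 0.0148 and 0.000456).

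The remaining 2 genes of entry did not pass. Cdc25b, the phosphatase that starts the activation of Cdk1 at the centrosome, had 5.84, 4.70 and 6.18 on the Ebf2-positive arrays, against 5.65, 6.61 and 5.88 on the Ebf2-negative arrays, a difference of -0.47 (SE 0.45, 95% interval -1.55 to 0.61, adjusted p = 0.502). Foxm1, a transcription factor that activates many of the other genes in this account late in the cell cycle, had 6.75, 5.91 and 6.07 on the Ebf2-positive arrays, against 5.96, 6.46 and 6.28 on the Ebf2-negative arrays. Its groups overlapped and the difference was 0.01 (SE 0.28, 95% interval -0.68 to 0.69, adjusted p = 0.989). The sign of the Foxm1 difference turned under centring on the median or on the spike-in controls, under the mean of its probe sets, with array weights and without replicate 1 of either group. Foxm1 has 4 probe sets, with differences of -0.20, 0.25, 0.01 and -0.97, none of which passed.

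Of the mitotic and centrosome kinases, 3 of 4 were called lower. Nek2, a kinase that promotes separation of the centrosomes, had 4.86, 3.38 and 5.66 on the Ebf2-positive arrays, against 8.35, 8.86 and 8.74 on the Ebf2-negative arrays. All Ebf2-positive arrays were below all Ebf2-negative ones, and the difference was -4.02 (SE 0.56, adjusted p = 0.00398). Plk1, a kinase needed for spindle assembly and mitotic exit, and Aurka, the kinase of the spindle poles, differed by -3.53 and -2.78 (adjusted p = 0.00105 and 0.00247). Plk4, which starts centriole duplication, had 2.77, 7.69 and 5.15 on the Ebf2-positive arrays, against 9.59, 8.34 and 9.12 on the Ebf2-negative arrays. Its groups did not overlap, but the Ebf2-positive arrays were far apart, with replicate 2 the highest, and the difference of -3.81 did not pass (SE 1.16, adjusted p = 0.0588). Without Ebf2-positive replicate 2 the Plk4 difference was -5.06 and passed (adjusted p = 0.00848).

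All 6 genes of the spindle checkpoint were called lower. Trip13, an ATPase that remodels the checkpoint protein Mad2, had 2.79, 2.64 and 2.06 on the Ebf2-positive arrays, against 10.30, 9.54 and 9.45 on the Ebf2-negative arrays. Bub1, a checkpoint kinase at the kinetochore, had 3.68, 2.17 and 4.12 on the Ebf2-positive arrays, against 8.60, 8.19 and 8.22 on the Ebf2-negative arrays. For both genes every Ebf2-positive array was far below every Ebf2-negative array. The Trip13 difference of -7.27 (SE 0.32, adjusted p = 0.000181) was the largest among the 56 genes, and that of Bub1 was -5.01 (SE 0.50, adjusted p = 0.00131). Of the other Trip13 probe sets, 1 differed by -3.26 and passed among probe sets, and 1, with means of 2.13 in Ebf2-positive cells, against 2.30 in Ebf2-negative cells, differed by -0.17 and did not pass.

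Bub1b, which encodes the checkpoint protein BubR1, Ttk, the kinase that starts checkpoint signalling, and Mad2l1, which encodes Mad2 itself, fell by 4.39, 3.95 and 3.15 on the log2 scale. Bub3, the protein that carries Bub1 and BubR1 to the kinetochore, changed least of the 51 genes called. It had 9.88, 9.98 and 10.08 on the Ebf2-positive arrays, against 10.98, 11.20 and 11.03 on the Ebf2-negative arrays. These are high signals with little spread in both groups, and the difference was -1.09 (SE 0.18, adjusted p = 0.0066). Bub3 no longer passed with a minimum log2 difference of 1 or with the mean of its 5 probe sets. Nor did it pass without probe sets whose names end in _s_at, _x_at or _a_at.

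The 4 genes of the chromosomal passenger complex, which corrects faulty attachments and directs cytokinesis, were all called lower. Aurkb, its kinase, had 5.58, 2.68 and 2.32 on the Ebf2-positive arrays, against 7.93, 8.35 and 7.93 on the Ebf2-negative arrays. Birc5, which encodes survivin, had 4.80, 2.47 and 3.97 on the Ebf2-positive arrays, against 7.44, 7.78 and 7.997 on the Ebf2-negative arrays. Ebf2-positive replicate 1 was the highest of its group for both genes, yet below every Ebf2-negative array. The differences were -4.54 (SE 0.83, adjusted p = 0.0101) and -3.99 (SE 0.57, adjusted p = 0.00426). Cdca8, which encodes borealin, and Incenp, the scaffold, differed by -3.29 and -2.99.

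All 9 centromere and kinetochore genes were called lower, by 2.19 to 4.78 in size. Cenpk, of the centromere-bound inner kinetochore, had 5.91, 3.38 and 3.17 on the Ebf2-positive arrays, against 9.01, 8.62 and 9.17 on the Ebf2-negative arrays. Spc24, a subunit of the microtubule-binding Ndc80 complex, had 3.93, 3.30 and 3.62 on the Ebf2-positive arrays, against 7.30, 7.47 and 7.67 on the Ebf2-negative arrays. The Ebf2-positive arrays were tight for Spc24 and spread for Cenpk, with no overlap for either. The differences were -4.78 for Cenpk (SE 0.72, adjusted p = 0.00509) and -3.87 for Spc24 (SE 0.23, adjusted p = 0.000354).

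Within the Ndc80 complex, Spc24 and Nuf2 differed by -3.87 and -3.56, and Ndc80 and Spc25 by -2.23 and -2.19, where the standard errors were 0.23, 0.24, 0.57 and 0.54. Differences between these genes were not tested. Cenpa, the histone variant that marks centromeres, differed by -3.81, Cenpe, a kinetochore motor, by -3.45, Cenph, a partner of Cenpk, by -3.43, and Cenpf, a large protein of the outer kinetochore, by -2.65. The calls of Cenpf, Ndc80 and Spc25 were the weakest of this group (adjusted p = 0.0392, 0.0323 and 0.0293). Cenpf passed in only 1 of the 6 fits that left out an array, and Ndc80 and Spc25 each passed in only 2. Without probe sets whose names end in _s_at, _x_at or _a_at, Cenpa and Spc25 were measured by other probe sets, at -1.01 and -0.38. Neither passed (adjusted p = 0.143 and 0.349).

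Among spindle motors and assembly factors, 6 of 8 were called lower. Kif2c, a kinesin that takes microtubules apart at the centromere, had 5.07, 2.75 and 2.82 on the Ebf2-positive arrays, against 7.88, 8.17 and 8.40 on the Ebf2-negative arrays. Nusap1, which stabilises spindle microtubules, had 3.99, 3.09 and 4.89 on the Ebf2-positive arrays, against 8.22, 8.92 and 8.47 on the Ebf2-negative arrays. No Ebf2-positive array reached the lowest Ebf2-negative array for either gene, and the differences were -4.60 (SE 0.63, adjusted p = 0.00368) and -4.55 (SE 0.47, adjusted p = 0.00143). Kif11, the motor that pushes spindle poles apart, Tpx2, which activates Aurka on the spindle, Kif4, a motor on chromosome arms, and Kif18a, which limits chromosome movement, differed by -4.42, -4.01, -3.88 and -2.44.

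Kif22, a chromosome-bound kinesin, had 8.55, 3.78 and 7.84 on the Ebf2-positive arrays, against 10.51, 10.65 and 9.95 on the Ebf2-negative arrays. Replicate 2 stood far below the other Ebf2-positive arrays, and although the groups did not overlap, the difference of -3.64 did not pass (SE 1.19, adjusted p = 0.0726). Its other 2 probe sets differed by -1.98 and -3.59 and both passed among probe sets (adjusted p = 0.0090 and 0.00496). Without Ebf2-positive replicate 2 the Kif22 difference was -2.17 and passed (adjusted p = 0.00929). Kif15, a kinesin that helps to keep the spindle bipolar, had 4.46, 4.22 and 4.35 on the Ebf2-positive arrays, against 3.83, 3.87 and 3.75 on the Ebf2-negative arrays. Every Ebf2-positive array was slightly above every Ebf2-negative array, at a low signal in both groups, and the difference of 0.52 did not pass (SE 0.18, adjusted p = 0.0775). Centring on the spike-in controls turned its sign, to -1.96. Kif15 was measured by a single probe set.

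The 6 genes of sister chromatid separation were all called lower. Cdca5, which encodes sororin, a protein that protects cohesion until anaphase, had 6.51, 2.24 and 6.38 on the Ebf2-positive arrays, against 10.72, 10.66 and 10.30 on the Ebf2-negative arrays. Espl1, which encodes separase, had 5.63, 3.23 and 3.19 on the Ebf2-positive arrays, against 8.53, 8.05 and 8.52 on the Ebf2-negative arrays. For both genes the Ebf2-positive arrays were low and spread and the Ebf2-negative arrays high and tight. Cdca5 differed by -5.52 (SE 1.12, adjusted p = 0.0145) and Espl1 by -4.35 (SE 0.67, adjusted p = 0.00532). Sgo1, the protector of centromeric cohesion, Pttg1, which encodes securin, the inhibitor of separase, Ube2c, the ubiquitin-conjugating enzyme of the anaphase-promoting complex, and Cdc20, its activator, differed by -3.65, -3.18, -2.92 and -2.76.

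All 6 cytokinesis genes were called lower. Ect2, the exchange factor that activates RhoA at the cell equator, had 2.59, 2.59 and 1.51 on the Ebf2-positive arrays, against 8.34, 7.10 and 7.57 on the Ebf2-negative arrays. Kif20a, a kinesin of the central spindle, had 2.57, 2.98 and 4.28 on the Ebf2-positive arrays, against 8.54, 7.63 and 7.60 on the Ebf2-negative arrays. For both genes all Ebf2-positive arrays were below all Ebf2-negative arrays. The differences were -5.44 for Ect2 (SE 0.43, adjusted p = 0.000638) and -4.65 for Kif20a (SE 0.50, adjusted p = 0.00168). Racgap1 and Kif23, which together form centralspindlin, differed by -3.09 and -2.49, Anln, a scaffold of the contractile ring, by -2.64, and Prc1, which bundles microtubules of the central spindle, by -2.59.

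The 7 genes of condensin and chromosome structure were called lower as well. Mki67, which encodes the proliferation marker Ki-67, a coat of mitotic chromosomes, had 6.34, 4.04 and 6.98 on the Ebf2-positive arrays, against 11.22, 10.74 and 10.79 on the Ebf2-negative arrays. Ncapg, a condensin I subunit, had 3.95, 2.58 and 3.75 on the Ebf2-positive arrays, against 8.68, 8.09 and 7.92 on the Ebf2-negative arrays. Ebf2-positive replicate 2 was the lowest for both, and the groups were far apart. The differences were -5.13 for Mki67 (SE 0.73, adjusted p = 0.00413) and -4.80 for Ncapg (SE 0.42, adjusted p = 0.000803). The ATPase subunits Smc2 and Smc4 differed by -4.66 and -2.88, the other condensin I subunits Ncaph and Ncapd2 by -3.73 and -2.69, and Top2a, the topoisomerase that untangles sister chromatids, by -2.86. Without probe sets whose names end in _s_at, _x_at or _a_at, Top2a was at -1.10 and did not pass (adjusted p = 0.113).

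**Figure D3:**
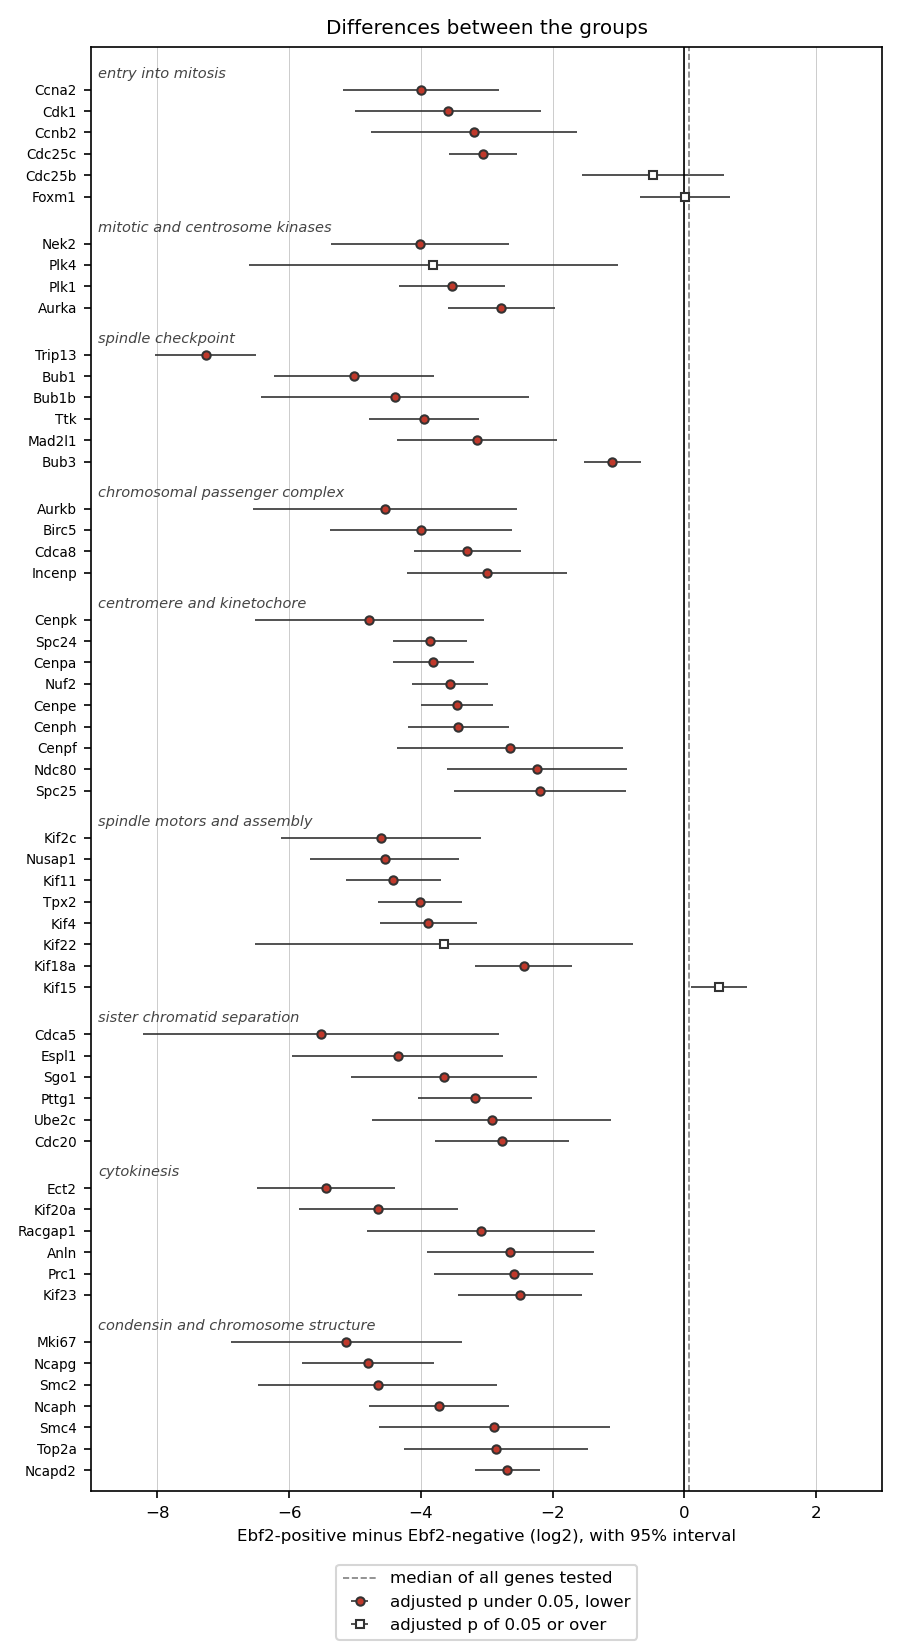
Ebf2-positive minus Ebf2-negative difference of each of the 56 mitosis genes (horizontal axis, log2) with its 95% interval, grouped by role (vertical axis); filled circles are genes called lower, open squares genes that did not pass, the solid line is 0 and the dashed line the median of all genes, 0.07. Trip13 lies farthest left at -7.27, and the 5 open squares are Cdc25b, Foxm1, Plk4, Kif22 and Kif15.

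The 56 genes varied more among the Ebf2-positive arrays than among the Ebf2-negative arrays. Their median SD was 0.906 in the Ebf2-positive group and 0.254 in the Ebf2-negative group, where the median over all genes was 0.376 in the Ebf2-positive and 0.243 in the Ebf2-negative group. The median signal of the 56 genes was 5.01, 4.17 and 5.21 on the Ebf2-positive arrays, against 8.36, 8.24 and 8.29 on the Ebf2-negative arrays. Replicate 2 was the lowest Ebf2-positive array for 28 of the 56 genes, replicate 1 for 15 and replicate 3 for 13, against 32.5%, 34.4% and 33.2% of all genes. For 15 of the 56 genes the Ebf2-positive mean was under 3.76, the median of all probe sets in that group. The same held for 6120 of all 18193 genes. For 0 of the 56 the Ebf2-negative mean was under the corresponding 3.71. The size of the difference of those 15 genes rests on dim signals.

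Leaving out each array in turn kept between 40 and 50 of the 56 genes called lower, and 40 were called in all 6 such fits. The lowest count came without Ebf2-negative replicate 3, when Anln, Ccnb2, Cdca5, Cenpf, Ndc80, Prc1, Racgap1, Smc4, Spc25, Top2a and Ube2c no longer passed. Without that array the count over all genes was 2690, against 4430 with it. Without Ebf2-positive replicate 2, the array with the lowest signals of these genes, 50 were called and the median difference was -3.39.

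Probe sets of the same gene were also tested singly, over 45037 probe sets. The 56 genes have 127 probe sets, of which 80 were called lower, 0 higher and 47 not called, where 8.76% of all probe sets were called lower and 6.39% higher. Of the 39 genes with several probe sets, 37 had at least 1 called lower and 23 at least 2. These counts include the representative probe sets. Of the 71 probe sets that were not representatives, 31 were called lower, 0 higher and 40 not. Incenp shows the spread within a gene, with differences of -2.99 and -2.98 for its brighter pair of probe sets and -1.04, -0.04 and 0.01 for the others, which were dim and did not pass. The representative probe sets of Cenpf and Ube2c passed over genes but not over probe sets (adjusted p = 0.0598 and 0.0525).

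**Figure D4:**
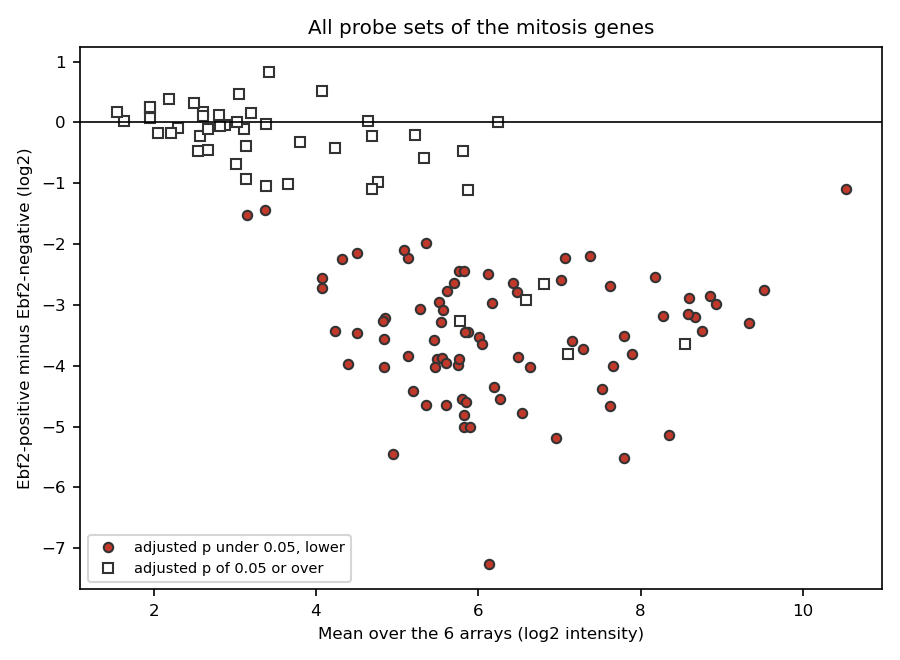
Difference of each of the 127 probe sets of the mitosis genes (vertical axis, Ebf2-positive minus Ebf2-negative, log2) against its mean over the 6 arrays (horizontal axis, log2 intensity); filled circles were called lower (80) and open squares did not pass (47). No probe set was called higher, and the lowest circle is a Trip13 probe set at -7.27.

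Further mitosis genes outside the 57 were also lower in Ebf2-positive cells. Of 110 measured, 75 were called lower and 0 higher, with a median difference of -2.09. The other kinetochore and centromere genes were called lower in 19 of 27 cases, led by Cenpp (-4.82), Kntc1 (-4.60) and Cenpi (-4.60). Cenpp and Cenpi belong to the inner kinetochore, and Kntc1 to the complex that brings dynein to it. Cenpp had 2.71, 3.81 and 4.33 on the Ebf2-positive arrays, against 8.67, 8.21 and 8.42 on the Ebf2-negative arrays, far apart. Other spindle and cytokinesis genes were called lower in 19 of 25 cases, led by Shcbp1 (-4.98), Spag5, which encodes the spindle protein astrin (-4.86), and Kif20b, a kinesin of the midbody (-4.47). Genes of entry and of the B-MYB and DREAM complexes were called lower in 21 of 27 cases, led by E2f8 (-4.90), a repressor of the E2F family, and the kinases Pbk (-4.74) and Melk (-4.56).

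The smallest shares came from the anaphase-promoting complex and from cohesin and condensin. Genes of the anaphase-promoting complex and its regulators were called lower in 9 of 16 cases, with a median of -0.98, led by Mad2l1bp, an antagonist of Mad2 (-2.23), Fzr1, an activator of the complex (-2.22), and Fbxo5, its inhibitor Emi1 (-2.14). Cohesin and other condensin genes were called lower in 7 of 15 cases, with a median of -1.23, led by Esco2, which acetylates cohesin in S phase (-4.77), Ncapg2, a condensin II subunit (-4.60), and Sgo2a, a protector of cohesion (-2.65). The cohesin ring genes Smc1a and Rad21 were at -1.26 and -0.94 and did not pass (adjusted p = 0.0572 and 0.0772). They are named after their values were seen.

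DNA replication genes were lower in Ebf2-positive cells too. Of 38 measured, 36 were called lower, 0 higher and 2 not, with a median of -3.45. The largest differences were those of Cdc7 (-5.61), the kinase that fires replication origins, Mcm10 (-5.15), which helps to start the replicative helicase, and Dbf4 (-4.86), the activating subunit of Cdc7. Cdc7 had 3.45, 2.03 and 2.60 on the Ebf2-positive arrays, against 9.22, 7.12 and 8.58 on the Ebf2-negative arrays, with no overlap. Genes of G1 and cell cycle inhibitors were mixed. Of 22, 6 were called lower, 3 higher and 13 not, with a median of -0.03.

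The lower ones were led by Ccne2 (-5.42) and Ccne1 (-3.25), which encode E-type cyclins for entry into S phase, and Cdk6 (-3.53), a partner of D-type cyclins. Ccne1 is named after its value was seen. Gas1, a growth arrest-specific gene, had 11.05, 11.26 and 11.29 on the Ebf2-positive arrays, against 6.56, 8.01 and 7.06 on the Ebf2-negative arrays, a difference of 3.99 (SE 0.38, adjusted p = 0.00104). The kinase inhibitors Cdkn1a, which encodes p21, and Cdkn2b were higher in Ebf2-positive cells by 1.82 and 1.60 (adjusted p = 0.0102 and 0.0178), with no overlap between groups. Of the other kinase inhibitors on the list, named after their values were seen, Cdkn2c was lower, with a difference of -1.51 (adjusted p = 0.019), again with no overlap. Cdkn1b, Cdkn1c, Cdkn2a and Cdkn2d were at 0.12, 1.85, 0.13 and -1.20 and did not pass. Centring on the spike-in controls turned the sign of Cdkn1a, to -0.66.

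**Figure D5:**
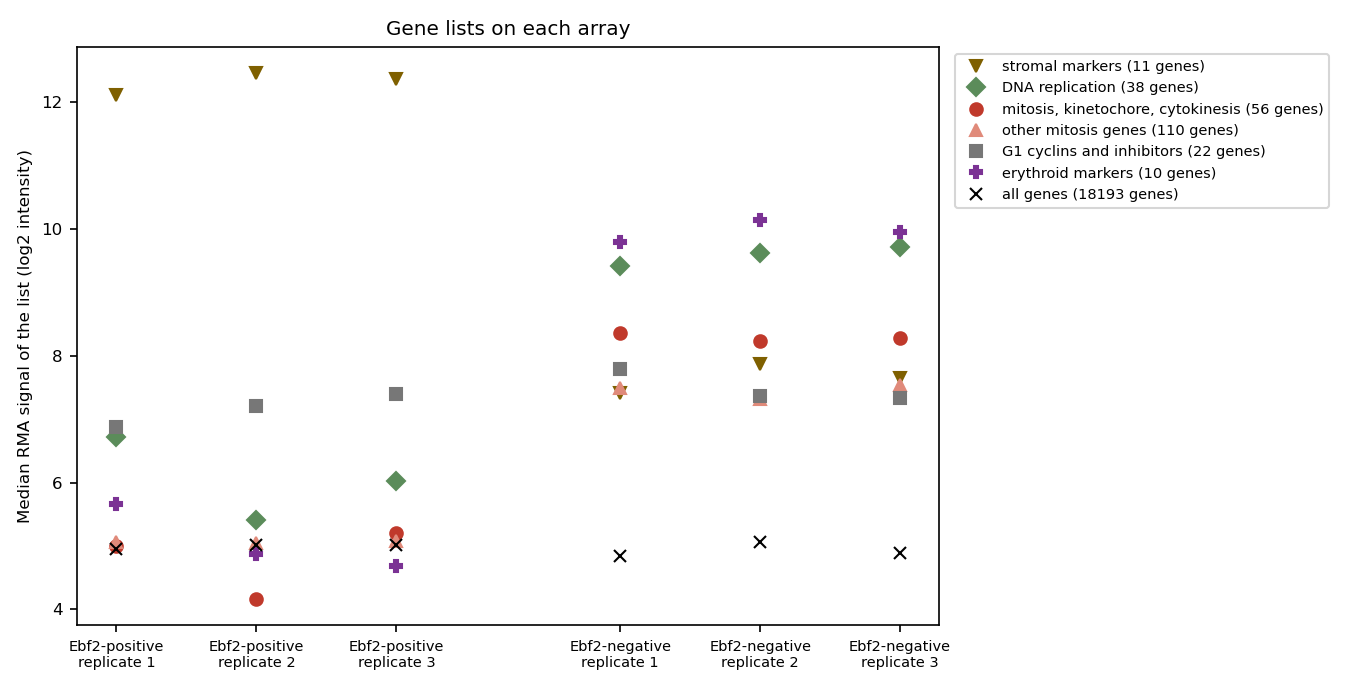
Median log2 signal (vertical axis, log2 intensity) of 6 gene lists and of all genes on each array (horizontal axis, Ebf2-positive arrays left, Ebf2-negative arrays right); each point is the median over the genes of a list. The mitosis genes lie between 4.17 and 5.21 on the Ebf2-positive arrays but between 8.24 and 8.36 on the Ebf2-negative arrays, and erythroid markers lie between 4.69 and 5.66 on the Ebf2-positive arrays and between 9.79 and 10.14 on the Ebf2-negative ones.

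Markers of some kinds of blood cell moved with the mitosis genes. The gate was meant to leave out cells that carry CD45, TER119 or CD31, not blood cells that lack all of these. Most markers of the B lineage, T and NK cells, neutrophils and macrophages did not. Of 10 measured erythroid markers, 9 were called lower in Ebf2-positive cells, and the list mean was 4.83 to 5.31 on the Ebf2-positive arrays, against 8.96 to 9.17 on the Ebf2-negative arrays. The defining erythroid genes were high in the Ebf2-negative cells, such as Rhag, of the red cell membrane, with means of 2.07 in Ebf2-positive cells, against 9.50 in Ebf2-negative cells, and Klf1, an erythroid transcription factor, with 7.77 in Ebf2-positive cells, against 11.62 in Ebf2-negative cells. Hba-a1, an alpha globin gene, was dim in both, at 2.58 in Ebf2-positive cells, against 2.37 in Ebf2-negative cells. It was measured by a single probe set, and probe sets that name several genes were not used. The level of globin RNA therefore cannot be judged from this value. All 4 basophil and mast cell markers and all 4 megakaryocyte markers measured were called lower, as were 5 of 9 leukocyte genes.

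Early progenitor genes were called lower in 3 of 5 cases, Kit, Myb and Gata2, and higher in 1, Cd34. In the other marker lists, called genes numbered 0 of 7 for the B lineage, 0 of 4 for T and NK cells, 2 of 8 (Mpo and Prtn3, higher) for neutrophils, 1 of 6 (Mrc1, lower) for macrophages and 1 of 7 (Tek, higher) for endothelium. Basophil and mast cell markers had a list mean of 3.37 to 3.63 on the Ebf2-positive arrays, against 6.98 to 8.64 on the Ebf2-negative arrays, and megakaryocyte markers 4.73 to 5.24 on the Ebf2-positive and 6.66 to 7.30 on the Ebf2-negative arrays. Leukocyte genes had 5.01 to 5.58 on the Ebf2-positive and 7.19 to 7.50 on the Ebf2-negative arrays. Ptprc, which encodes CD45, had 6.68, 6.76 and 3.59 on the Ebf2-positive arrays, against 8.78, 7.98 and 8.23 on the Ebf2-negative arrays, a difference of -2.65 that did not pass (SE 0.86, adjusted p = 0.0698). Pecam1, which encodes CD31, had 3.57 ± 0.52 in Ebf2-positive cells, against 3.01 ± 0.70 in Ebf2-negative cells (SD, n = 3 each) and did not pass (adjusted p = 0.403). Whether the difference in mitotic genes was due to these other cells was not tested. The cell types cannot be told apart in RNA of the whole sorted sample.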

How the data were processed

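Fresh cells of 6 bone marrow samples were measured on Affymetrix MOE430_2 arrays, 3 Ebf2-positive and 3 Ebf2-negative. The authors deposited an intensity for every probe set and sample, computed with RMA according to the submitters' processing notes, which give no version. RMA normalizes quantiles between arrays, so a difference in total RNA per cell cannot be seen. The deposited intensity values are linear, and log2 was taken before any test.

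Of 45101 probe sets, 64 controls were left out. The annotation gives 34945 probe sets 1 gene, 932 several and 9160 none, and a RefSeq table (GRCm38.p6) matched 34741 by Entrez identifier. For each of 18193 genes the probe set with the highest mean was used. A single two-sided limma fit (version 3.58.1, R 4.3.3, functions lmFit and eBayes) compared the groups, with Benjamini-Hochberg adjustment over all genes and a threshold of 0.05. Promoters were searched on both strands in a RefSeq table of the same build. The members and all gene lists were chosen with earlier results of these data known, so no test was made over a list.

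Named in full are, in each of the 9 role groups, the 2 genes with the largest difference and every uncalled gene, and for the other mitosis, DNA replication and G1 lists the 3 largest called genes and up to 2 in the opposite direction, besides Ebf2, Ptprc and Pecam1. Other genes, cell type markers among them, were named after their values were seen. Alternatives were a further quantile normalization, 3 kinds of centring, a filter on dim genes, other choices of probe sets, other variance models, array weights, a minimum difference, the replicate number as a block, and leaving out each array. In simulated data with 18193 genes the share of changed genes called was 2.99% (67 genes) for a log2 change of 1, 43.3% (67 genes) for 2 and 90.9% (66 genes) for 4, with 4 false calls. Only those genes were changed, and each gene had the same SD in both groups. In the real comparison 24.4% of genes were called and SDs differed between the groups, so these shares need not hold for it. Control probe sets were compared with exact permutation tests in Python 3.11.15, and figures were drawn with matplotlib 3.10.9.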

Additional observations from a re-analysis of the deposited data

Results flagged for a closer look

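The poly-A and hybridization control probe sets, which were left out of the tests of genes, differed between the groups. An alternative centring was the only use made of the poly-A controls. The poly-A controls, RNA of bacterial genes that is added before amplification, had a mean log2 signal of 12.32 ± 0.23 on the Ebf2-positive arrays, against 9.84 ± 0.996 on the Ebf2-negative arrays (SD, n = 3 each), a difference of 2.48. The hybridization controls, added to the labelled sample before it goes onto the array, had 12.39 ± 0.63 on the Ebf2-positive arrays, against 10.79 ± 0.47 on the Ebf2-negative arrays, a difference of 1.60. In both cases every Ebf2-positive array was above every Ebf2-negative array, and the two-sided exact permutation p of 0.1 is the smallest that 3 against 3 arrays allow. With each array centred on its poly-A controls, the median difference of all genes was -2.41, and that of the mitosis genes -6.05. Signal at the 3′ end exceeded that at the 5′ end on every array. For actin the ratio was 14.0 to 31.4 on the Ebf2-positive and 15.9 to 24.2 on the Ebf2-negative arrays. For Gapdh it was 8.45 to 25.4 and 10.9 to 27.6 (exact permutation p = 0.5 for each). Whether this affects probe sets of the same gene differently was not tested.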

How the results depend on the processing

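The count of mitosis genes called lower was 51 of 56. Over all alternatives it ranged from 38 of the 45 left to 56, the latter with centring on the poly-A controls. The 38 came without probe sets whose names end in _s_at, _x_at or _a_at. The count was 40 with a minimum log2 difference of 1, and 0 were called higher except Kif15, with the mean of probe sets. Leaving out each array in turn gave 40 to 50 mitosis genes, 57 to 70 other mitosis genes, 32 to 37 DNA replication genes, 8 to 9 G1 genes, 62 to 81 mitosis probe sets and 2690 to 4348 genes in all. Without Ebf2-negative replicate 3 the last count was 2690, the only such fit to move a count by over 1.5 times. Poly-A centring, which shifted the median of all genes to -2.41, called 15823 genes against 4430, with 1.43% of the called genes higher against 44.3%, as well as 16 G1 genes and 127 mitosis probe sets. A minimum log2 difference of 1 called 1433 genes, 38 other mitosis genes, 4 G1 genes and 49 mitosis probe sets. Foxm1 was at -0.048 with median centring, -2.47 with poly-A centring, -0.23 with the mean of probe sets and -0.068 with array weights. It ranged from -0.24 to 0.17 as single arrays were left out, negative when replicate 1 of either group was missing. Poly-A centring also turned Kif15 to -1.96, Cdkn1a to -0.66 and Pecam1 to -1.92. The causes were not tested. Same-numbered arrays deviated together only weakly (correlations 0.06, 0.11 and 0.03, against -0.10 to 0.04 for arrays of different number). Of the 6 arrays, 5 correlated best with their own number. The labels do not state whether equal numbers mark paired samples, and these correlations cannot settle it. With the replicate number as a block, 49 mitosis genes were called (Cenpf and Ube2c lost), 67 other mitosis genes, 36 DNA replication genes, 9 G1 genes, 74 mitosis probe sets and 4219 genes in all. Signals near the lower end of the range limit the size of differences, and 3 arrays a group limit all calls.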
